A study of Rattus norvegicus with 16 samples.

Results

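The genes described are 10 writers, erasers and readers of m6A (N6-methyladenosine), the commonest internal mark of messenger RNA: Mettl3, Mettl14, Wtap, Rbm15, Zc3h13, Fto, Alkbh5, Ythdf1, Ythdf2 and Ythdf3. They were taken by symbol from a deposited table of 8671 rat genes, and all 10 had a row there. What was measured in their own transcripts is another mark, ac4C (N4-acetylcytidine), and recovery in a separate RNA immunoprecipitation (RIP). Tissue was the dorsal horn of the spinal cord from wild-type rats with bone cancer pain or from normal rats (controls). For ac4C, 3 bone cancer pain and 3 control replicates each had an immunoprecipitated (IP) library and an input library, merged by the authors into 1 peak list per replicate. The RIP had 2 IP and 2 input libraries, all from bone cancer pain. Strain, sex, age, the tumour model and the RIP antibody are not given in the sources used here, and the labels state the ac4C kit for the RIP libraries as well. The files of the bone cancer pain lists carry the abbreviation CFA while the labels name bone cancer pain, and the groups follow the labels.

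In mammals, m6A is written by a core pair of METTL3, the catalytic subunit, and METTL14, which holds the RNA. WTAP, RBM15 and ZC3H13 belong to the regulatory part of the complex, which places it in the nucleus and on its target RNAs. FTO and ALKBH5 are demethylases that take the mark off, and the YTHDF proteins bind it in the cytoplasm, where YTHDF2 is best known for directing marked RNA to decay. The ac4C mark is written by another enzyme, NAT10. The m6A pathway is active in neurons and has been studied in learning, axon growth and pain.

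The deposited lists differed greatly in length, with 50417, 2416 and 1173 peaks in bone cancer pain 1, 2 and 3, against 1208, 1802 and 1418 peaks in controls 1, 2 and 3. List 1 of bone cancer pain held 49281 peaks with the same fold of 10.6. Their median false discovery rate (FDR) was 0.0562, which was also the FDR of all 26 peaks that the 10 genes had in that list. Peaks with an FDR of at most 0.05 numbered 899 to 1240 per bone cancer pain list and 916 to 1074 per control list. Calls below use that limit unless they are said to be from the lists as deposited. Marker genes of the dorsal horn had rows in the RIP table (6 of 6 for inhibitory and 4 of 6 for excitatory neurons, 7 of 7 for oligodendrocytes), and muscle and bone markers had none of 5. That table holds only genes past an enrichment threshold, so a missing row does not show that a gene or tissue was absent. These are bulk samples, so fewer cells of a type and less RNA per cell cannot be told apart.

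Zc3h13 stood apart from the other writers in the ac4C lists: its transcript carried a peak in 1 of the 3 lists from bone cancer pain, against 3 of the 3 from controls. Among all genes of the RIP table, 0.507% had a peak in 3 control lists, and 1.21% had a peak in at least 4 of the 6 lists. Of the 10 genes, Zc3h13 alone met either count, and at a limit of 0.01 it met neither, since the control 3 peak dropped out. The difference between groups did not pass a test (Fisher's exact test, two-sided, p = 0.4, adjusted p = 1 over 8671 genes). No gene could pass, since even 3 lists against 0 gives an exact p of 0.1. Zc3h13 peaks averaged 0.333 ± 0.577 per list in bone cancer pain and 1 ± 0 in controls (SD, n = 3 each; two-sided exact permutation p = 0.4, with 0.1 the smallest p this design allows). As deposited, Zc3h13 had a peak in all 6 lists, as did 0.265% of genes in the table, and the averages were 2 ± 1.73 in bone cancer pain and 1 ± 0 in controls (SD, n = 3 each; exact permutation p = 1). The direction therefore turned with the limit, and at an FDR of at most 0.01 the difference in average was -0.33 (exact permutation p = 1).

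The single peaks of Zc3h13 lay on the plus strand of chromosome 15 (rn6). In bone cancer pain 3 the peak was at chr15:57404509-57404688, with a fold of 61.8 and an FDR of 5.13e-08. This fold was higher than that of 75% of the peaks in the same list. In control 1 the peak had 3 blocks within chr15:57370484-57377550, a fold of 40.1 and an FDR of 3.98e-36, the smallest FDR of any peak in these 10 genes. The peak of control 2 was at chr15:57389206-57389385, with a fold of 5.44 and an FDR of 3.24e-06. The peak of control 3 was at chr15:57389056-57389236, with a fold of 16.7 and an FDR of 0.0229. The fold and p-value of the control 3 peak were shared by 133 peaks of its list, and those of the bone cancer pain 3 peak by 7 of its list. The fold and p-value of the control 1 and control 2 peaks occurred once in their lists. Folds are the authors' own values for each peak, IP over input, and are read here within a list only.

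Above the limit, bone cancer pain 2 had 1 Zc3h13 peak at chr15:57404419-57404598, with a fold of 10.5 and an FDR of 0.127. Bone cancer pain 1 had 4 peaks along the gene, all at the recurrent fold of 10.6. The peaks of bone cancer pain 2 and 3 shared 90 bp. The peaks of controls 2 and 3 shared 31 bp at another place, with 15033 bp between the end of the control 2 peak and the start of the bone cancer pain 2 peak. No Zc3h13 peak of a bone cancer pain list overlapped one of a control list. The nearest bone cancer pain 1 peak began 89 bp beyond the bone cancer pain 3 peak and overlapped neither of the others. The control 1 peak likewise overlapped no other control peak and ended 11505 bp before that of control 3. The overlap of controls 2 and 3 covered 17.2% of the shorter peak.

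**Figure D1:**
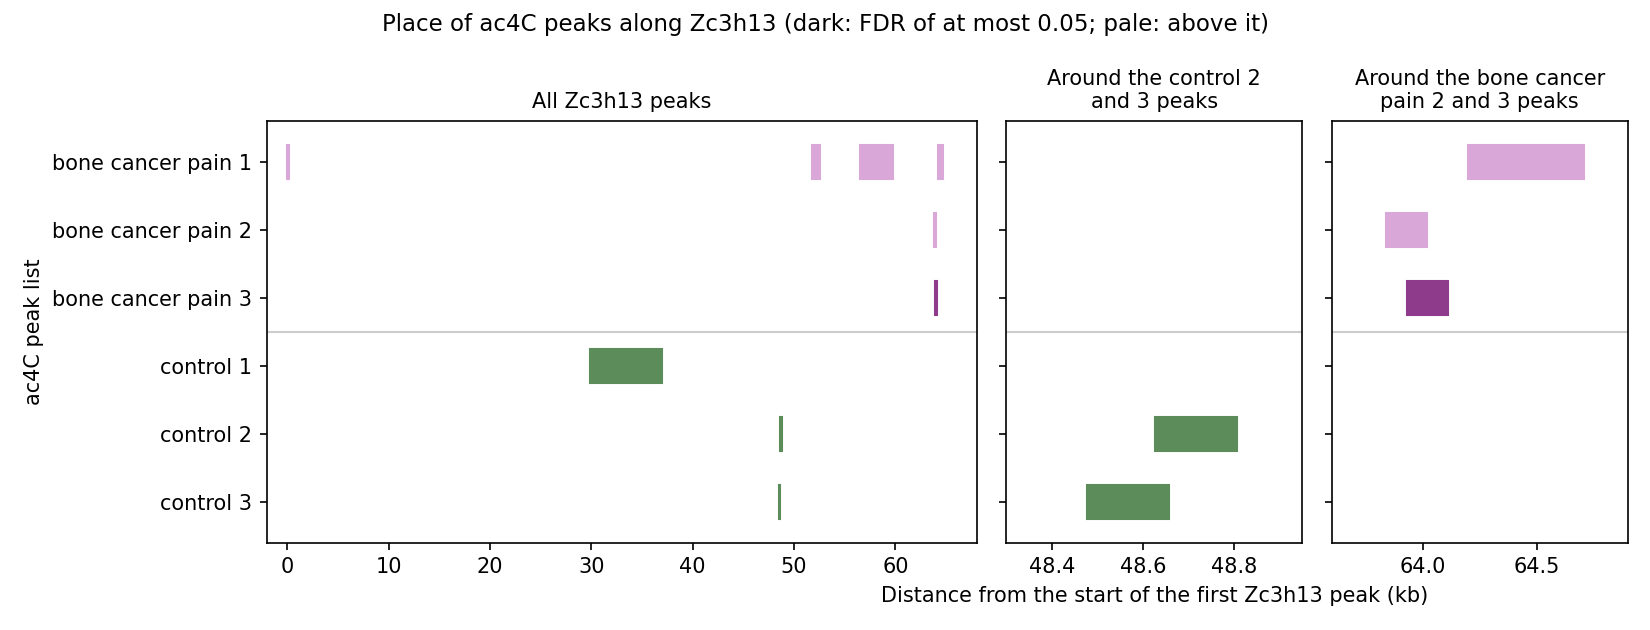
The x axis gives the distance in kb from the start of the first Zc3h13 peak and the rows give the 6 lists; each bar spans a peak from start to end, gaps between its blocks included, and pale bars mark peaks with an FDR above 0.05. The middle and right panels enlarge the place where the control 2 and 3 peaks share 31 bp and the place where the bone cancer pain 2 and 3 peaks share 90 bp.

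This arrangement of Zc3h13 was noticed in the data and then counted across the table, without a test. As deposited, 252 genes of the RIP table were marked by 2 or more lists of each group. In 130 of them (51.6%) some peak of a bone cancer pain list overlapped a peak of a control list. Peaks overlapped within the bone cancer pain lists in 70 genes (27.8%) and within the control lists in 60 (23.8%). More pairs of lists can be formed between the groups than within either, so these shares are not directly comparable. In 6 of the 252 genes (2.38%), Zc3h13 included, peaks overlapped within both groups and never between them. Overlap within each group was itself uncommon, so this small share does not set Zc3h13 apart. Of the 10 genes, Zc3h13 was the only one with peaks in enough lists to be counted. The bone cancer pain overlap rests on a peak with an FDR of 0.127, and the rn6 annotation that would place these peaks in coding or untranslated exons was not used here.

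The other writer genes had no ac4C peak under the limit in any list. Mettl3, the catalytic subunit, and Mettl14, its partner, had 1 and 3 peaks, Wtap, the scaffold, had 2, and Rbm15, an RNA-binding subunit, had 3. All 9 of these peaks came from bone cancer pain list 1 and had the recurrent fold of 10.6. That list as deposited named 81.1% of the genes in the table, so a peak there alone says little about a gene.

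Of the erasers, Fto was marked in 1 list from bone cancer pain and no control list, and Alkbh5 in no list from bone cancer pain and 1 control list. The Fto peak of bone cancer pain 2 was on the minus strand within chr19:17015968-17045111, as 3 blocks of 299 bp in total spread over 29144 bp. Its fold was 31.4 and its FDR 8.32e-05, and 84.6% of the peaks in that list had a lower fold. This fold and its p-value were shared by 59 peaks of the list. Fto also had a control 1 peak at chr19:16773280-16773399 above the limit, with a fold of 4.01 and an FDR of 0.114. The Alkbh5 peak of control 2 was on the plus strand at chr10:46906562-46906741, with a fold of 26.1 and an FDR of 0.00141. Its fold and p-value were shared by 61 peaks of control list 2. Neither eraser had overlapping peaks in any pair of lists, also as deposited.

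Of the readers, Ythdf3 alone passed the limit, with no list from bone cancer pain and 1 control list. The control 3 peak of Ythdf3 was on the plus strand at chr2:100697975-100698125, with the fold of 16.7 and the FDR of 0.0229 that the Zc3h13 peak of the same list had. A bone cancer pain 1 peak at chr2:100697558-100697796 ended 178 bp before it. Ythdf1 had a control 2 peak at chr3:176422574-176422724, with a fold of 13 and an FDR of 0.0794. Ythdf2 had a bone cancer pain 2 peak at chr5:150383451-150383630, with the same fold of 10.5 and FDR of 0.127 as the Zc3h13 peak of that list. The fold and p-value of this Ythdf2 peak were shared by 598 peaks of the list. Together with a bone cancer pain 1 peak, this peak made Ythdf2 the only one of the 10 genes found, as deposited, in 2 lists from bone cancer pain and no control list (Fisher's exact test, p = 0.4).

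**Figure D2:**
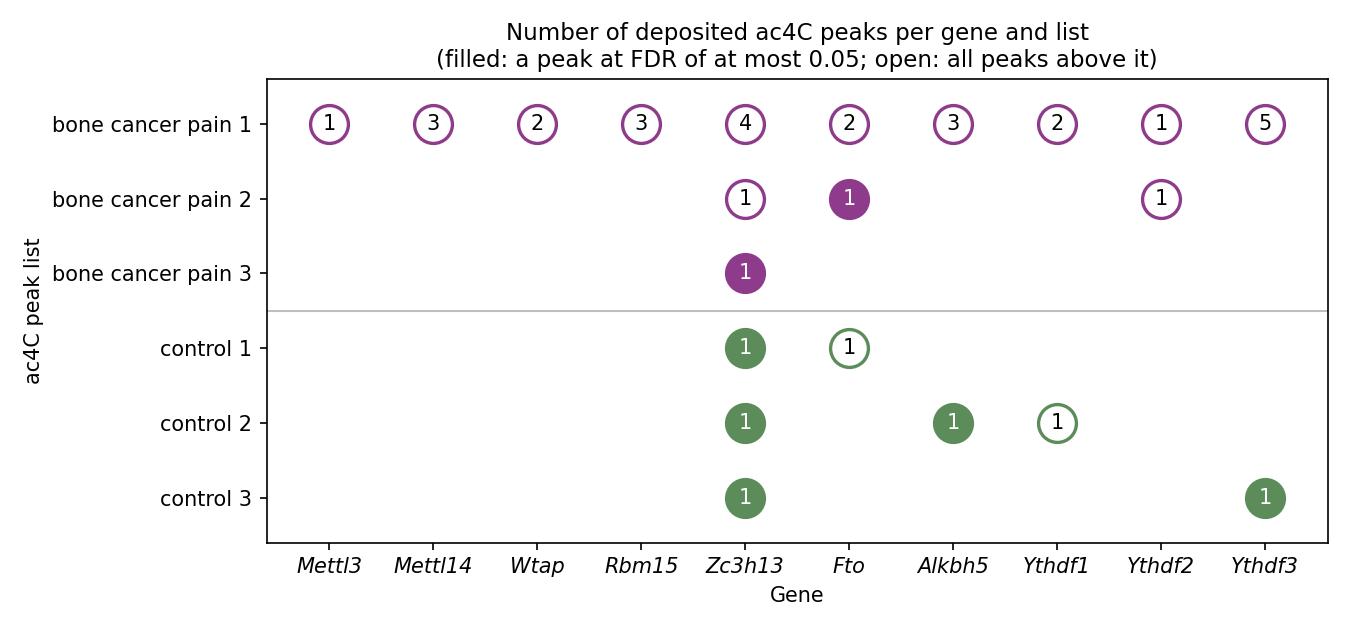
Circles give the number of deposited ac4C peaks for each gene (columns) in each of the 6 lists (rows); a filled circle holds at least 1 peak with an FDR of at most 0.05 and an open circle holds none. All 10 genes are marked in bone cancer pain list 1, always open, and Zc3h13 is the only gene marked in every list.

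Counted over the 10 genes, 0 were marked by 2 or more lists from bone cancer pain, where 4% of all genes in the table were, and 1 (Zc3h13) by 2 or more control lists, where 3.89% were. None was gained (marked by 2 or more lists from bone cancer pain and by 0 control lists, as were 1.80% of all genes), and none was lost (the reverse, 1.71% of all genes). A peak in any list was present for 4 of the 10 genes and for 36.8% of all genes. Any list from bone cancer pain marked 2 of the 10 (Zc3h13 and Fto) and 23.2% of all genes, and any control list marked 3 (Zc3h13, Alkbh5 and Ythdf3) and 22.7%. As deposited, 3 of the 10 (Zc3h13, Fto and Ythdf2) were marked by 2 or more lists from bone cancer pain, beside 21.6% of all genes, and 1 (Zc3h13) by 2 or more control lists, beside 6.60%. Gained and lost genes were then 1 (Ythdf2) and 0 of the 10, against 11.3% and 0.738% of all genes. With so few genes, none of these counts stands apart from the background shares. Leaving out bone cancer pain list 1 took the gained count as deposited to 0. Leaving out bone cancer pain list 3, the only list of that group with a Zc3h13 peak under the limit, made Zc3h13 a lost gene. The shares of all genes gained or lost with a list left out are not given here.

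Recurrence of peaks at a place was counted next. Of 7 peaks under the limit (2 in bone cancer pain lists and 5 in control lists), 2 overlapped a peak of the same gene in another list, both in Zc3h13. Over all genes of the table, 13.9% of 5304 peaks did. As deposited, 4 of 37 peaks of the 10 genes recurred, beside 11.3% of all 26689 peaks. When at least 50% of the shorter peak had to be shared, 0 of the 7 peaks recurred, against 10.1% of all peaks.

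Genes with a peak in exactly the same 4 lists as Zc3h13 (bone cancer pain 3 and controls 1, 2 and 3) were then sought. There were 5 further named genes, and all are given, whether or not their signals were near those of Zc3h13. Ordered by the distance of their 4 log2 RIP signals from those of Zc3h13, these were Acaca (acetyl-CoA carboxylase, of fatty acid synthesis) at 2.39, Arhgap21 at 3.62, Eif4g3 (a translation initiation factor) at 3.99, Gprasp1 at 4.64 and Abca2 (a lipid transporter) at 6.42. This order rests on signal levels whose scale, including any correction for length, is not stated. Their log2 folds in the authors' deposited table were 3.02, 2.55, 1.93, 2.42 and 2.64.

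For the RIP, made in bone cancer pain tissue, transcripts of all 10 genes had a higher signal in both IP libraries than in both input libraries, from 4.33-fold for Mettl14 to 6.51-fold for Rbm15 in the authors' deposited table. The table holds only genes past a threshold (log2 fold of at least 1.01 and p of at most 0.0488 in every row), so enrichment was a condition of having a row and is given as a description. Of the 10, 10 had a log2 fold of at least 2, where 79.2% of all genes in the table did. Their median log2 fold was 2.52 in the authors' deposited table, beside 2.4 over all genes, and 7 of the 10 lay above the median of all genes. The signal is normalised in a way the header does not state, so no difference in level between genes is reported.

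Mettl3 had a signal of 18 and 17.7 in IP 1 and 2, against 3.15 and 3.12 in input 1 and 2. Its same-numbered IP and input pairs gave log2 ratios of 2.52 and 2.5, the closest of the 10 genes. Mettl14 had 7.35 and 7.33 in IP 1 and 2, against 1.43 and 1.94 in input 1 and 2. The input values of Mettl14 were the furthest apart of the 10 in ratio (1.35 times), and its pairs gave 2.36 and 1.92. The pair ranges of the Mettl3 and Mettl14 transcripts did not overlap.

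Wtap had a signal of 36.7 and 36.8 in IP 1 and 2, against 7.40 and 9.33 in input 1 and 2. Rbm15 had 7.92 and 10.1 in IP 1 and 2, against 1.37 and 1.39 in input 1 and 2. Zc3h13 had 12.4 and 13.2 in IP 1 and 2, against 2.05 and 2.07 in input 1 and 2. The spread lay in the inputs for Wtap, in the IP libraries for Rbm15 and in neither for Zc3h13, whose pairs gave log2 ratios of 2.60 and 2.67. In the authors' deposited table the log2 folds of Rbm15 and Zc3h13 were 2.70 and 2.63, higher than in 75.4% and 70% of genes, and that of Wtap was 2.13, higher than in 29.1%.

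Among the erasers, Fto had a signal of 34.0 and 35.9 in IP 1 and 2, against 5.34 and 6.33 in input 1 and 2. Alkbh5 had 17.5 and 18 in IP 1 and 2, against 2.82 and 3.36 in input 1 and 2. The erasers lay close together: their log2 folds in the authors' deposited table were 2.58 and 2.52, and their pair ranges overlapped.

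Among the readers, Ythdf1 had a signal of 15.9 and 17.4 in IP 1 and 2, against 2.83 and 3.42 in input 1 and 2. Ythdf2 had 17.9 and 19.6 in IP 1 and 2, against 3.05 and 3.16 in input 1 and 2. Ythdf3 had 24.9 and 22.7 in IP 1 and 2, against 4.65 and 5.56 in input 1 and 2. The libraries of each kind kept apart in every reader, with the lowest IP value at least 4 times the highest input value. In the authors' deposited table the log2 folds were 2.41 for Ythdf1, 2.59 for Ythdf2 and 2.22 for Ythdf3. The pair ranges of Ythdf2 (2.55 and 2.63) lay above those of Ythdf3 (2.42 and 2.03) without overlap.

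**Figure D3:**
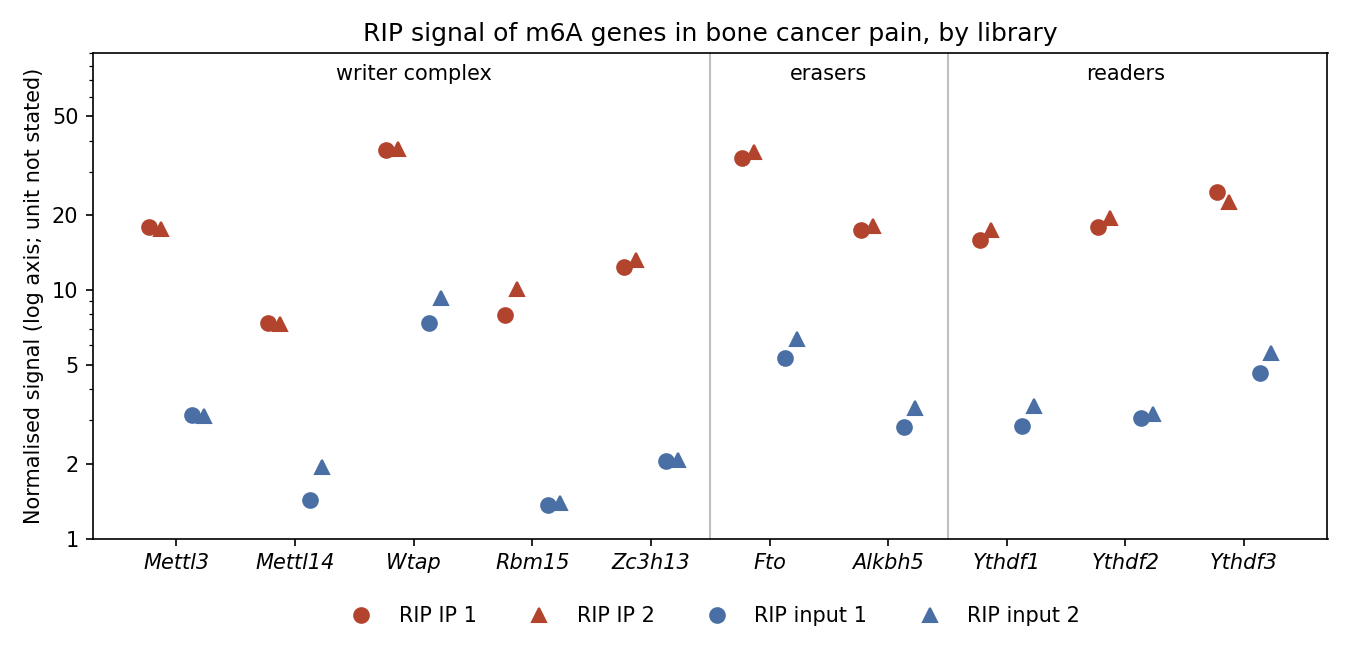
The y axis (log scale) gives the deposited normalised signal of each gene, with IP libraries left and input libraries right of each gene's position and the replicate shown by the symbol. In all 10 genes both IP values lie above both input values.

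Ordered by the log2 fold in the authors' deposited table, the genes ran Rbm15, Zc3h13, Ythdf2, Fto, Alkbh5, Mettl3, Ythdf1, Ythdf3, Wtap and Mettl14. In 8 of the 9 neighbouring steps the ranges of the 2 pairs overlapped, the exception being Mettl3 above Ythdf1. At the ends of the order, the pair ranges of Rbm15 (2.53 and 2.86) and Mettl14 (2.36 and 1.92) did not overlap. With 2 pairs per gene, neither the order nor any lack of overlap between pair ranges was tested. Pair 2 gave the lower ratio in 7 of the 10 genes, with a difference (pair 2 minus pair 1) as far as -0.44 log2 units for Mettl14, and over all genes the median of that difference was -0.08. The FDR was at most 3.46e-20 for every one of the 10 in the authors' deposited table, with Fto smallest at 5.11e-103. Within the tenth of the table with like input signal, Rbm15 stood above 72.5% of genes, Zc3h13 above 70.5% and Mettl14 above 28.8%, close to their places in the whole table.

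**Figure D4:**
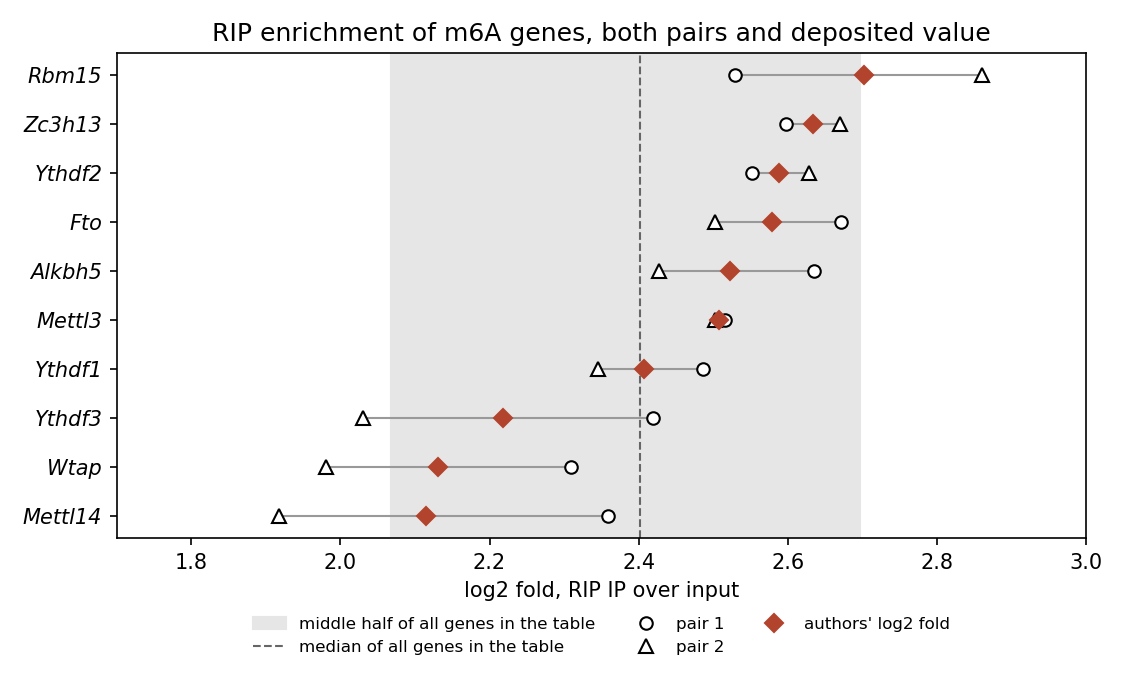
The x axis gives the log2 fold of RIP IP over input; circles and triangles are pairs 1 and 2, diamonds the authors' deposited values, the grey band the range between the quartiles and the dashed line the median of all 8671 genes. Zc3h13, Ythdf2 and Mettl3 have their pairs close together, whereas those of Mettl14 (1.92 and 2.36), Ythdf3 and Rbm15 lie further apart.

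Further genes of the m6A pathway spanned a wider range of folds. Of 26 listed genes, 14 had a row, with a median log2 fold of 2.21 and 10 of 14 at 2 or more, beside the 79.2% of all genes. Rida, linked to decay by YTHDF2, and the methyltransferase Mettl16 were highest, at 2.95 and 2.92 in the authors' deposited table, although Rida had log2 ratios of 3.73 and 2.45 in pairs 1 and 2. Lowest were Cbll1 (HAKAI, another writer complex subunit) at 1.11 and the reader Prrc2a at 1.5, with pair values of 1.12 and 1.09 for Cbll1. Of the 14 genes, 6 had an ac4C peak under the limit in some list, beside 36.8% of all genes, and none was gained or lost, beside 1.80% and 1.71%. Prrc2a was marked by lists 2 and 3 of bone cancer pain and lists 2 and 3 of controls. Cnot1, the scaffold of the deadenylase complex that YTHDF2 recruits, was marked by list 1 of bone cancer pain and lists 1 and 2 of controls. In neither Prrc2a nor Cnot1 did peaks under the limit overlap between lists. Fxr2, in contrast, had a peak at chr10:56257353-56257532 in both bone cancer pain 2 and control 2. Its fold there was 52.3 (FDR 3.16e-11) in bone cancer pain 2 and 39.1 (FDR 2.75e-06) in control 2.

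Enzymes and readers of other RNA marks were counted in the same way. Of 25 listed genes, 19 had a row, with a median log2 fold of 2.39 and 15 of 19 at 2 or more, beside the same 79.2%. The m5C methyltransferase Nsun2 was highest at 2.97, followed by Tet2 at 2.69, and Tet3 at 1.68 and the pseudouridine synthase Dkc1 at 1.55 were lowest in the authors' deposited table. Of the 19, 5 had an ac4C peak under the limit in some list, and none was gained or lost, beside the same shares of all genes. Adarb1, an adenosine deaminase that edits neuronal RNA, was marked by 2 lists from bone cancer pain and 1 from controls. Its bone cancer pain 1 peak had the recurrent fold of 10.6, with an FDR of 0.0155. The Adarb1 peaks under the limit did not overlap between lists.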

How the data were processed

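Build rn6 and the programs HISAT2 2.1.0, featureCounts 1.6.3, HOMER 4.10.4, DESeq2 and cutadapt 2.5 are named in the submitters' processing notes without their roles, and no peak caller is named there. The authors deposited 1 ac4C peak list per IP and input pair, per the file headers with a fold (a ratio of IP over input) per peak and scores that are log10 of its p-value and FDR. For the RIP they deposited a log2 fold, a p-value and an FDR per gene and a normalised signal per library. Read totals are not in the files used, and the value of 1 read, sought in 100 small RNA genes, was uncertain by small whole factors (input 1 over input 2: a ratio of 1.09 fitted 55 genes and 0.547 fitted 51), so depth is unknown.

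The genes, lists and limit were chosen with earlier results of these data known. Peaks were assigned by gene identifier and kept at an FDR of at most 0.05; peak starts are printed 1-based. Peaks overlapped when their blocks had 1 bp or more in common on one strand. Fisher's exact test (Benjamini-Hochberg adjustment over 8671 genes) and exact permutation tests were two-sided; the RIP was not tested again, since its table holds only genes past a threshold. Named were all 10 genes, listed pathway genes with a peak in at least 2 lists of a group, the 2 highest and 2 lowest of each list by log2 fold, and the 5 genes with peaks in the same lists as Zc3h13. Fxr2 was named in addition, for a peak at the same place in both groups. Alternatives were other FDR, fold, overlap and list limits, leaving out each replicate, and other RIP ratios. The sample titles call the replicates biological, but whether a replicate is 1 rat is not given. The tests compared lists between groups with each list as a unit, which may not be a rat. Marker gene lists other than those given are not reported here. The functions were tested on simulated data. Python 3.11.15, pandas 2.3.3, numpy 2.4.6, scipy 1.17.1, statsmodels 0.14.6 and matplotlib 3.10.9 were used.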

Additional observations from a re-analysis of the deposited data

How the results depend on the processing

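Of 75 alternative values, 61 were labelled the same as the main value, 13 moved and 1 reversed, by limits that are not printed here. The label does not mean unchanged. The 61 include a Zc3h13 difference of 0 against -0.67, as deposited without bone cancer pain list 1. They also include 8 genes against 10 at a RIP log2 fold of 2 or more, without RIP replicate 1. With all peaks as deposited, 3 genes were marked by 2 or more lists from bone cancer pain, 1 gene was gained, 4 of 37 peaks recurred (11.3% of all peaks in the table), and the difference in Zc3h13 peaks per list (bone cancer pain minus control) turned to 1 from -0.67. With those lists but without bone cancer pain list 1, chosen after seeing the data, these values were 1, 0, 4 of 11 (14.7% of all peaks) and 0. An FDR of at most 0.01 gave a Zc3h13 difference of -0.33 (exact permutation p = 1). With 1 list required, 2 genes had a peak in bone cancer pain (23.2% of all genes) and 3 in controls (22.7%). Requiring 50% of the shorter peak left 0 recurrent peaks. Leaving out single lists gave 0 to 1 lost genes, 0 to 2 recurrent peaks and a Zc3h13 difference of -1 to -0.5 (exact permutation p of 0.1 to 0.4). Shares of all genes marked, gained or lost with a list left out are not given here, so those counts have no background. Within same-numbered lists, a replicate block gave the same Zc3h13 difference of -0.67 with an exact permutation p of 0.5, where 0.25 is the smallest possible; the labels do not say that a number pairs lists. A pseudocount of 1 took the median RIP log2 fold of the 10 genes to 2.13 (2.08 over all genes). It left 9 of the 10 at 2 or more, beside 56.3% of all genes. Single pairs gave medians of 2.46 to 2.52, with 10 genes at 2 or more in pair 1 and 8 in pair 2. The share of all genes for single pairs is not given here. The filter at a mean input signal of 10 was not run, since 0 of the 10 genes reach it. The cause of these changes was not tested. Depth is unknown, so absence of a peak does not show absence of ac4C.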
